A study of Mus musculus with 2 samples.

Results

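Arg1, Arg2 and Spp1 were followed through every cell class of injured mouse muscle at 9 h and at 2 h. They are 3 of the 32285 genes in the matrices and were picked by symbol, as the arginases and osteopontin of early macrophages, with earlier results of these data known. All levels below are therefore a description, with no test. At 9 h the members lay in different cells. Most Arg1 UMIs lay in monocyte-like and macrophage-like cells, and Arg2 UMIs lay mostly in neutrophil-like cells. Spp1 UMIs also lay mostly in neutrophil-like cells, with a high level in monocyte-like cells too. By share of UMIs, Arg1 alone thus lay mostly in monocyte-like and macrophage-like cells. Such shares also follow the number of cells in each class.

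The cells came from the quadriceps of wild-type C57BL/6J mice that had received 100 µl of 1.2% (w/v) barium chloride into the muscle, a treatment that kills myofibres and draws in leukocytes. Muscle was taken 9 h or 2 h after the injection, and both groups were injured. Mononuclear cells were cryo-preserved, thawed and made into 1 droplet library per time, aimed at 5000 cells each. How many animals each library pooled is not given in the sources used here. After filtering, 8147 cells with 35127600 UMIs were kept at 9 h and 4900 cells with 27598413 UMIs at 2 h, with medians of 2327 and 4519 UMIs per cell. The libraries shared 20 cell barcodes, of which 12 were kept in both.

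Arginase splits arginine into ornithine and urea. Arg1 encodes the cytosolic enzyme, best known from liver and from macrophages given interleukin-4, and Arg2 the mitochondrial enzyme. Both compete for arginine with nitric oxide synthase, and the ornithine they make feeds polyamine and proline synthesis. Spp1 encodes osteopontin, a secreted phosphoprotein that binds CD44 and several integrins, is made by macrophages in injured muscle, and is also a major protein of bone.

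Spp1 (ENSMUSG00000029304) lies at chr5:104435118-104441050 on the plus strand, Arg1 (ENSMUSG00000019987) at chr10:24915221-24927484 on the minus strand and Arg2 (ENSMUSG00000021125) at chr12:79130777-79156301 on the plus strand of mm10, by GENCODE M21. All are protein-coding, with 8 exons in Spp1-202, Arg1-201 and Arg2-201. The arginases descend from one gene family, so the question arises whether reads of one could be counted for the other. The longest exact run that any Arg1 and Arg2 transcript shared was 12 bases, against reads of 98 bases. The coding windows that hold this run are shown because they are the place where the genes are hardest to tell apart. They cover coding bases 499 to 558 of Arg1-201 and 556 to 615 of Arg2-201, counted from the A of the start codon, and capitals mark the 43 of 60 bases that are identical in both.
Arg1: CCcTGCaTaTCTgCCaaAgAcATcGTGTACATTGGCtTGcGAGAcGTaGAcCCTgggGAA
Arg2: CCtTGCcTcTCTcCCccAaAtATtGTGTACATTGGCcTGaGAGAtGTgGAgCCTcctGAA
Arg2 overlaps Vti1b and Gm48780 on the opposite strand, and Spp1 overlaps Gm42793 on the same strand. How the authors' counting treated strand and overlap is not given in the sources used here.

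For Spp1, the member with the most UMIs, the 250 bases before its RefSeq start (chr5:104434861-104435110, plus strand, GRCm38.p6, from RefSeq) are shown for context, since no assay of binding or chromatin was part of the study. The other members had no entry in that table. Capitals mark matches on either strand to AACCACA, the core bound by Runx factors, and to ATTGG, the CCAAT box read on the other strand.
Spp1 promoter: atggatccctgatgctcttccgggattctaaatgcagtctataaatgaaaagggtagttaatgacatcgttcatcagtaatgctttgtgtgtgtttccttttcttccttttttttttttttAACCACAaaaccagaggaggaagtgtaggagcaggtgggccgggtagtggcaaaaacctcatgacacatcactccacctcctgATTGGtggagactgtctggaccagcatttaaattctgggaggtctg
AACCACA lay at base 122 of the window and ATTGG at base 205. Among all 32851 promoter windows of this length, 4.4% held AACCACA and 33.8% held ATTGG on either strand. No match in this window was found for TGANTCA (AP-1, in 6.75% of windows), for TGACGTCA (cyclic AMP response, in 1.55%) or for NACGTGN (hypoxia response core, in 16.5%).

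Of 21 clusters, made without the members among the clustering genes, 20 were named from marker lists into 12 classes. The macrophage-like cluster held all 14 macrophage markers and the monocyte-like cluster 9 of 10 monocyte markers. The neutrophil-like clusters each held 11 or 12 of 12 neutrophil markers. At 9 h and 2 h there were 357 and 172 monocyte-like cells, 234 and 314 macrophage-like cells, and 3359 and 1617 neutrophil-like cells. Cluster 4, with 947 cells at 9 h and 20 at 2 h, scored highest for neutrophil markers but stayed unnamed, because its leading genes held the monocyte-list gene F10 and no neutrophil marker. Levels are the gene's UMIs in a class scaled to counts per 1e6 UMIs of that class (CPM). Intervals are exact, at 95%, and cover counting error only, with each UMI taken as independent and the spread between animals and between cells left out.

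Over all kept cells the totals were 26128 Spp1 UMIs at 9 h and 3677 at 2 h, 1096 Arg1 UMIs at 9 h and 37 at 2 h, and 4855 Arg2 UMIs at 9 h and 1860 at 2 h. The level ratio of 9 h over 2 h was 5.58 for Spp1 (5.39 to 5.78), 23.3 for Arg1 (16.8 to 33.2) and 2.05 for Arg2 (1.94 to 2.16). These ratios join a change within cells with a change in which cells were caught, since neutrophil-like cells were a larger part of the 9 h library. The classes were therefore taken apart.

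**Figure D1:**
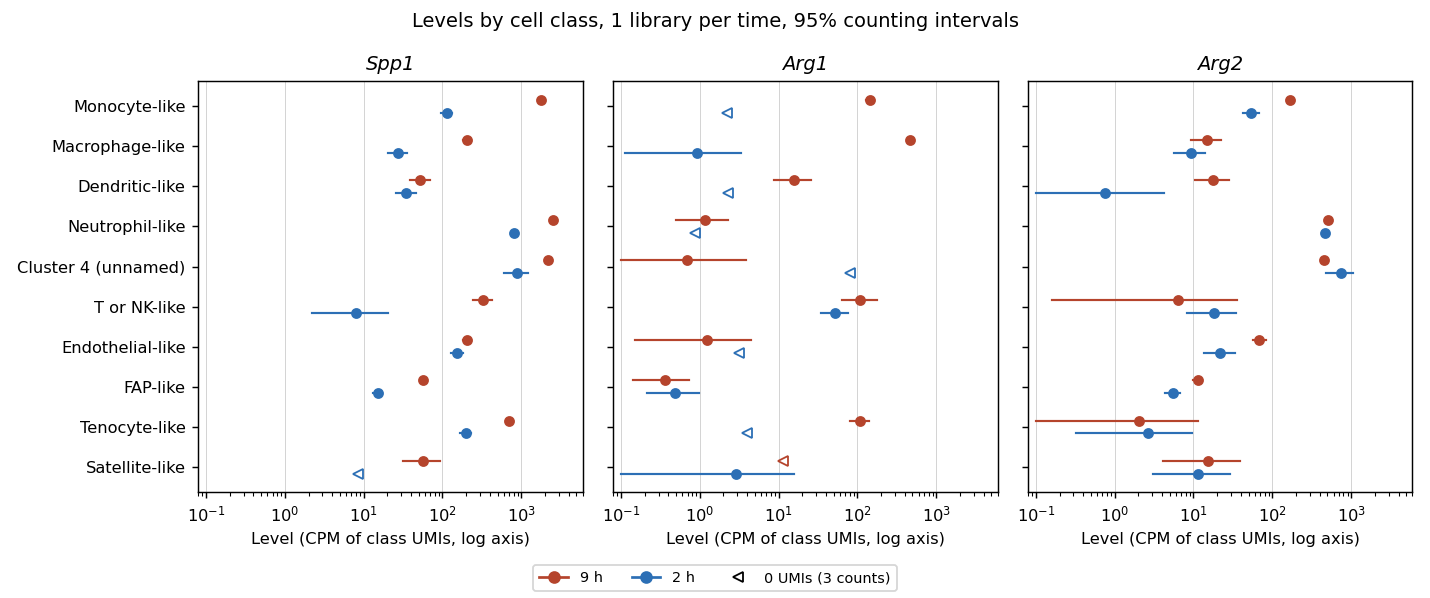
Level of each member (CPM of the class's UMIs, log axis) in 10 cell groups at 9 h (red) and 2 h (blue), 1 library per time. Bars are exact 95% counting intervals, drawn no lower than 0.1 CPM, and open triangles stand for 0 UMIs, placed at the level that 3 counts would give. Arg1 at 9 h is highest in macrophage-like cells (470.7 CPM), while Spp1 and Arg2 are highest in neutrophil-like cells (2496 and 507 CPM).

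Arg1, the cytosolic arginase, was near absent from myeloid cells at 2 h and plain at 9 h. Macrophage-like cells held 694 Arg1 UMIs at 9 h, a level of 470.7 CPM (436 to 507), against 2 UMIs at 2 h (0.919 CPM, 0.111 to 3.32). The ratio was 512, with a counting interval of 141 to 4238 because it rests on those 2 UMIs. Monocyte-like cells held 300 Arg1 UMIs at 9 h (145.7 CPM, 130 to 163) and 0 UMIs at 2 h, at least 65.3-fold higher at 9 h when 2 h is set to a floor of 3 counts. In macrophage-like cells 4.38% of 4292 measured genes were at least 2-fold higher at 9 h and 7.69% at least 2-fold lower, and in monocyte-like cells 4.5% and 6.28% of 3887. A call here, and in every such share below, is a log2 ratio past 1 with 10 CPM added to both levels.

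Few cells carried most of the Arg1. At 9 h, 67 of the 234 macrophage-like cells (28.6%) had an Arg1 UMI, and 19 cells with 10 or more held 77.2% of the class's Arg1 UMIs, with up to 90 in 1 cell. In monocyte-like cells 39 of 357 (10.9%) had a UMI and 10 cells held 78.7%. After each cell was thinned to 1000 UMIs, which left out 7 macrophage-like and 4 monocyte-like cells at 9 h, Arg1 was seen in 13.7% (9.47 to 18.8) of macrophage-like cells and 5.099% (3.05 to 7.94) of monocyte-like cells. At 2 h it was seen in 0 of 307 macrophage-like cells, with an exact upper limit of 1.19%, and in 0 of 172 monocyte-like cells, with an upper limit of 2.12%. Median depths before thinning were 5548.5 UMIs at 9 h and 5775 at 2 h in macrophage-like cells, and 5806 and 7945 in monocyte-like cells.

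FAP-like and neutrophil-like cells gave a low floor for Arg1. FAP-like cells, the fibro-adipogenic progenitors of the muscle interstitium, had 0.358 CPM at 9 h and 0.491 CPM at 2 h, and thinned shares of 0.043% of 2325 cells and 0 of 2002 cells. Their median depth was 8224 UMIs at 9 h and 7955 at 2 h, above that of the myeloid classes. Neutrophil-like cells had 8 Arg1 UMIs at 9 h (1.17 CPM) and 0 at 2 h. Monocyte-like and macrophage-like cells together held 90.7% (88.8 to 92.4) of the library's Arg1 UMIs at 9 h and 5.41% at 2 h. Of the remaining 9 h UMIs, 52 came from a single tenocyte-like cell, 14 from a single dendritic-like cell and 17 from T or NK-like cells, whose level of 109 CPM compares with 145.7 CPM in monocyte-like cells. With a finer clustering the 9 h share in the named monocyte-like and macrophage-like cells was 49.7%, since the macrophage-like class then held 162 cells and 1799 cells of several clusters had no name.

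**Figure D2:**
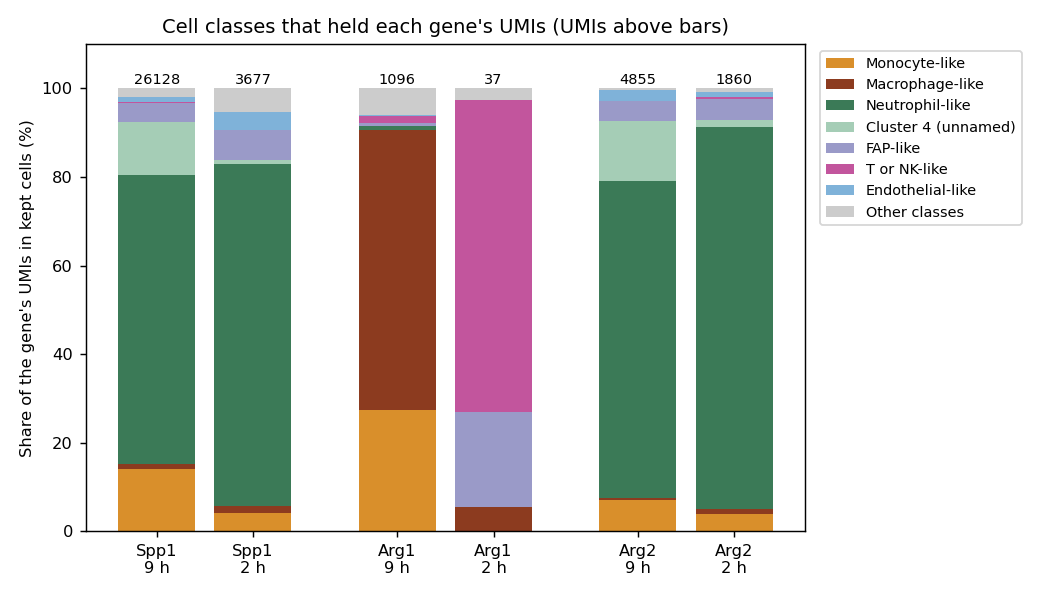
Share of each member's UMIs (%, linear axis from 0) that each cell class held in kept cells, at 9 h left and 2 h right for each gene, with the number of UMIs above the bar. At 9 h Arg1 sits in monocyte-like and macrophage-like cells (90.7%), while neutrophil-like cells hold 65.2% of Spp1 and 71.3% of Arg2.

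At 2 h most of the little Arg1 present lay outside the myeloid cells. T or NK-like cells held 26 of the 37 UMIs (70.3%), in 14 of 103 cells, a level of 52.1 CPM (34.1 to 76.4). The name T or NK-like was given to the whole cluster from its marker score, and not to these cells. At 9 h their 17 UMIs lay in 9 of 37 cells, a level of 109 CPM (63.6 to 175), a ratio of 2.09 (1.07 to 4.01). Macrophage genes were low in them at 2 h, with 0 C1qa UMIs and 3 Lyz2 UMIs in the Arg1-positive cells. These cells were then set beside the Arg1-negative cells of the class with a short list of lymphoid genes that was chosen after their values were seen. At 2 h several genes were higher in the Arg1-positive cells. Gata3, a transcription factor of type 2 lymphocytes, stood at 1477 CPM in Arg1-positive and 454 CPM in Arg1-negative cells. Il2ra, a subunit of the interleukin-2 receptor, stood at 870 and 169 CPM, and the growth factor gene Areg at 958 and 154 CPM. Rora stood at 2278 and 923 CPM, Id2 at 2181 and 1067 CPM, and Il1rl1 at 548 and 227 CPM. Il5 stood at 342 and 55.5 CPM and Calca at 645 and 333 CPM. The list held all of these, with Il7r and Il13, as genes of group 2 innate lymphoid cells. Il7r, the interleukin-7 receptor, was not higher, at 460 and 497 CPM, and Il13 had 0 UMIs against 22.7 CPM. Genes of cytotoxic cells were also present in some Arg1-positive cells, with Ccl5 at 1154 CPM against 4036 CPM and Nkg7 at 254 against 363 CPM. Ccl5 was seen in 3 and Nkg7 in 5 of the 14 Arg1-positive cells, and in 45 and 41 of the 89 others. Ncr1 had 3 UMIs, all in 1 Arg1-positive cell, and 7 UMIs in the others, and Klrb1c had 2 and 19 UMIs. Cd3e, a part of the T cell receptor complex, had 0 UMIs in the 14 Arg1-positive cells and 288 CPM in the others. Cd3d, Cd3g and Trac had 1, 2 and 2 UMIs in the Arg1-positive cells, and 209, 232 and 300 CPM in the others. At 9 h these differences were not all seen. Gata3 stood at 656 CPM in the 9 Arg1-positive cells and 675 CPM in the 28 others, and Il2ra at 364 and 367 CPM. Areg was lower in the Arg1-positive cells, at 91.1 against 288 CPM. Rora stood at 1129 and 1379 CPM, Id2 at 874 and 774 CPM, and Il1rl1 at 492 and 446 CPM. Il5 stood at 474 and 347 CPM and Calca at 8489 and 7242 CPM. Cd3e, Cd3d, Cd3g and Trac had 0 UMIs in the Arg1-positive cells. Cd3e stood at 79.4 CPM and Ccl5 at 1200 CPM in the other cells at 9 h, and Ccl5 had 0 UMIs in the Arg1-positive cells.

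Arg2, the mitochondrial arginase, was held mostly by neutrophil-like cells, where its level differed little between the times. Neutrophil-like cells had 507 CPM at 9 h (491 to 525) and 462 CPM at 2 h (440 to 485), a ratio of 1.10 (1.03 to 1.17). They held 71.3% of the library's Arg2 UMIs at 9 h and 86.4% at 2 h. Among neutrophil-like cells 4.67% of 4645 measured genes were at least 2-fold higher at 9 h and 6.14% at least 2-fold lower, and Arg2 was in neither share. Different clusters made up the class at each time, mostly clusters 2, 5 and 9 at 9 h and clusters 3 and 6 at 2 h. The level varied little over them: the 9 h level ran from 480 CPM in cluster 5 to 567 CPM in cluster 3, and the 2 h level was 432 CPM in cluster 3 and 487 CPM in cluster 6. Unnamed cluster 4 had 459 CPM at 9 h.

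Arg2 was spread thinly over many neutrophil-like cells, unlike the patchy Arg1. At 9 h 57.2% of them had an Arg2 UMI and at 2 h 53.6%, and no cell held more than 16 UMIs. Thinned to 1000 UMIs, which left out 227 cells at 9 h and 97 at 2 h, the shares were 38.7% and 34.3%. Their median depth was 1727 UMIs at 9 h and 2015 at 2 h. FAP-like cells, thinned in the same way, had a UMI in 1.33% of cells at 9 h and 0.599% at 2 h.

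In monocyte-like cells Arg2 was lower than in neutrophil-like cells and was higher at 9 h than at 2 h. The level was 169.5 CPM at 9 h (152 to 188) and 53.5 CPM at 2 h (41.9 to 67.4), a ratio of 3.17 (2.45 to 4.14), with thinned shares of 13.9% and 4.07%. When myeloid cells were clustered again, as given below, different sub-clusters filled the class at each time. Sub-cluster 1, with 28 cells at 9 h and 156 at 2 h, had 53.3 and 50.8 CPM (ratio 1.05, 0.405 to 2.30). Sub-cluster 0 had 166.5 CPM in 204 cells at 9 h and 0 Arg2 UMIs in 7 cells at 2 h, at least 2.10-fold higher with 2 h set to 3 counts. Macrophage-like cells had 14.9 CPM at 9 h (9.35 to 22.6) and 9.19 CPM at 2 h (5.61 to 14.2), a ratio whose interval spans 1 (1.62, 0.846 to 3.14). Endothelial-like cells stood at 68.5 CPM at 9 h and 22.0 CPM at 2 h. Neutrophil RNA can reach other droplets, so S100a8, an abundant neutrophil gene, was read in each class. If all S100a8 of a class came with neutrophil RNA, the Arg2 carried along would be 54.6 CPM at 9 h and 19.8 CPM at 2 h in endothelial-like cells, close to the levels seen. In monocyte-like cells it would be 29.3 CPM at 9 h and 10.3 CPM at 2 h, below the levels seen. In macrophage-like cells it would be 5.84 CPM at 9 h and 4.96 CPM at 2 h.

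Spp1, the osteopontin gene, was the most abundant member, and more of it lay in neutrophil-like cells than in any other class. Their level was 2496 CPM at 9 h (2458 to 2533) and 815.9 CPM at 2 h (786 to 847), a ratio of 3.06 (2.94 to 3.18). They held 65.2% of the library's Spp1 UMIs at 9 h and 77.2% at 2 h. Cluster 4 held another 12.0% at 9 h, at 2157 CPM. Within the neutrophil-like class the 9 h level was 3022 CPM in cluster 2, 2545 in cluster 9, 2411 in cluster 5, 1463 in cluster 3 and 795 in cluster 6. At 2 h it was 964.5 CPM in cluster 3 and 700.2 in cluster 6. Clusters 3 and 6, the ones well filled at both times, differed less between the times than the class did, with 1463 CPM at 9 h against 964.5 at 2 h in cluster 3 (ratio 1.52, 1.39 to 1.65).

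Spp1 was uneven from cell to cell. In neutrophil-like cells 45.6% had a UMI at 9 h and 21.5% at 2 h, and thinned to 1000 UMIs 39.6% (37.9 to 41.3) and 17.2% (15.3 to 19.2). The 538 cells with 10 or more UMIs at 9 h held 78.9% of the class's Spp1, and 86 such cells at 2 h held 71.8%. The richest cell had 153 UMIs at 9 h and 108 at 2 h. FAP-like cells gave thinned shares of 2.93% at 9 h and 1.10% at 2 h.

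The Spp1-rich neutrophil-like cells kept a high S100a8 level. Lyz2, Fn1 and Ccr2 stood far below their level in monocyte-like cells, but the monocyte gene Ly6c2 did not. At 9 h the 134 cells with 30 or more Spp1 UMIs had 50660 CPM of S100a8, against 54960 CPM in the 1827 cells with none. Arg2 stood at 451 CPM in the rich cells and 511 CPM in those with none, Lyz2, the lysozyme gene, at 199 and 174 CPM, and C1qa, a complement gene of macrophages, at 2.37 and 4.07 CPM. Csf3r, the receptor for granulocyte colony-stimulating factor, was lower in the rich cells, at 404 CPM against 724 CPM. Fn1, the fibronectin gene, stood at 21.4 CPM in the rich cells and 9.70 CPM in those with none, Ccr2, a chemokine receptor of monocytes, at 11.9 and 0.313 CPM, and Cd68 at 102 and 116.5 CPM. In monocyte-like cells of 9 h with no Spp1 UMI, Fn1 was 1645 CPM, Ccr2 738 CPM and Cd68 375 CPM. Ly6c2 stood at 142 CPM in the rich neutrophil-like cells and 106 CPM in those with none. In monocyte-like cells it was 157 CPM with 30 or more Spp1 UMIs and 296 CPM with none. The median depth of the rich cells was 2106.5 UMIs, against 1607 in cells with none.

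**Figure D3:**
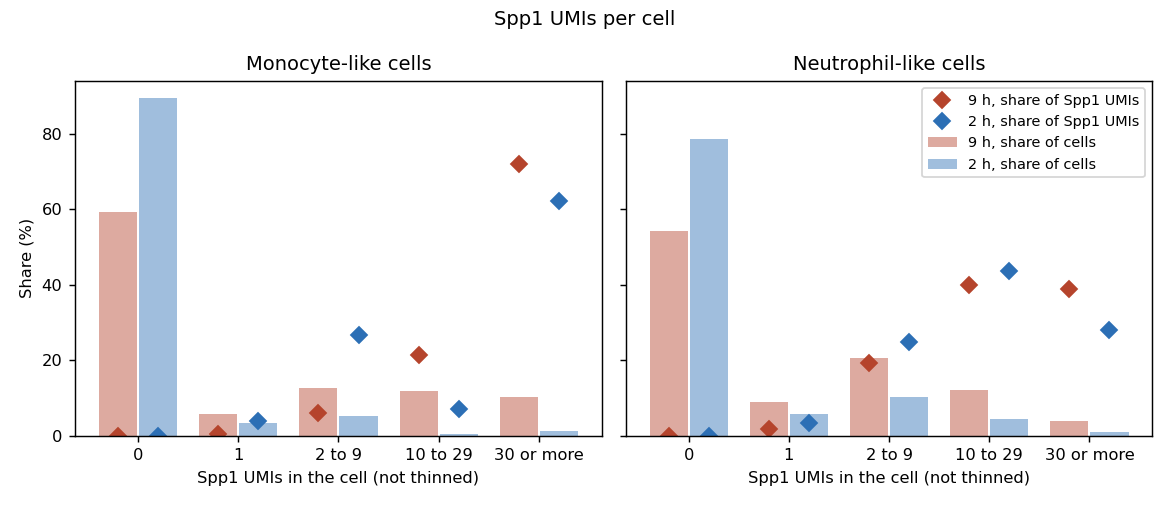
Share of cells (bars, %) and share of the class's Spp1 UMIs (diamonds, %) by the number of Spp1 UMIs in a cell, unthinned, in monocyte-like and neutrophil-like cells at 9 h (red) and 2 h (blue). At 9 h the cells with 30 or more UMIs are 10.4% of monocyte-like and 3.99% of neutrophil-like cells and hold 72.0% and 38.9% of the Spp1 UMIs.

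In monocyte-like cells Spp1 stood at 1793 CPM at 9 h (1736 to 1852) and 113.8 CPM at 2 h (96.5 to 133), a ratio of 15.8 (13.4 to 18.7). The class lay in different sub-clusters at each time when myeloid cells were clustered again: sub-cluster 0 held 200 of its cells at 9 h and 7 at 2 h, and sub-cluster 1 held 28 and 156. Within them the ratio was lower, at 1.79 (1.38 to 2.37) in sub-cluster 0 and 7.09 (5.05 to 9.91) in sub-cluster 1. Thinned shares were 31.2% (26.4 to 36.3) at 9 h and 4.65% (2.03 to 8.96) at 2 h. At 9 h 79 cells with 10 or more UMIs held 93.5% of the class's Spp1, with up to 242 in 1 cell. At 2 h only 18 of 172 cells had a UMI, and 3 of them held 69.3%. Macrophage-like cells were lower, at 204.8 CPM at 9 h (182 to 229) and 27.1 CPM at 2 h (20.6 to 35.0), a ratio of 7.56 (5.70 to 10.2). Carried neutrophil RNA, reckoned from S100a8 as above, would give 144 CPM at 9 h and 18.1 CPM at 2 h in monocyte-like cells, and 28.7 CPM at 9 h and 8.76 CPM at 2 h in macrophage-like cells, all below the levels seen.

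The Spp1-rich monocyte-like cells of 9 h differed from the others in several genes. The 37 cells with 30 or more UMIs had 297 CPM of Arg1, against 99.3 CPM in the 212 cells with none. Lyz2 stood at 4821 CPM in the rich cells and 11280 CPM in those with none, and Ly6c2, a marker of classical monocytes, at 157 and 296 CPM. S100a8 was lower in the rich cells, at 1385 CPM against 2693 CPM, but did not fall steadily with Spp1. It was 1573 CPM in the 21 cells with 1 Spp1 UMI, 6050 CPM in the 45 with 2 to 9 and 3902 CPM in the 42 with 10 to 29. Fn1 was 1491 and 1645 CPM.

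Several smaller classes had Spp1 levels above the 204.8 CPM of macrophage-like cells at 9 h, with the UMIs in few cells. Tenocyte-like cells had 704 CPM at 9 h and 198 CPM at 2 h, in 7 of 63 and 7 of 80 cells, and single cells held up to 169 of the 342 UMIs at 9 h and 139 of the 150 at 2 h. Pericyte or smooth muscle-like cells had 352 CPM at 9 h (271 to 450) and 4.43 CPM at 2 h, a ratio of 79.6 (13.8 to 3192) that rests on 1 UMI at 2 h. Their 64 UMIs at 9 h lay in 3 of 32 cells, 49 of them in 1 cell. T or NK-like cells had 328 CPM at 9 h and 8.02 CPM at 2 h, and 45 of the 51 UMIs at 9 h lay in 1 cell. S100a8 would carry 36.8 CPM at 9 h in tenocyte-like cells, 55.7 CPM in pericyte or smooth muscle-like cells and 233 CPM in T or NK-like cells. In FAP-like cells, where 7.32% of measured genes were at least 2-fold higher at 9 h and 9.27% at least 2-fold lower, the level was 56.6 CPM at 9 h and 15.1 CPM at 2 h, of which S100a8 would carry 43.1 and 7.67 CPM. In endothelial-like cells these shares were 8.07% and 8.1%. They had 204 CPM at 9 h and 154 CPM at 2 h, against carried levels of 269 and 35.0 CPM, and at 2 h 3 cells held 83.0% of it. Satellite-like cells, the muscle stem cells, had 15 UMIs at 9 h and 0 at 2 h.

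When monocyte-like, macrophage-like and dendritic-like cells were clustered again, Arg1 and Spp1 came apart. At 9 h sub-cluster 0, with 204 cells led by Inhba, Serpinb2, Cxcl3 and Spp1 itself, had 2703 CPM of Spp1 (2610 to 2799) and 235 CPM of Arg1 (208 to 264). It held 12.2% of the library's Spp1 UMIs and 25.4% of its Arg1 UMIs. Inhba encodes a subunit of activin, and stood at 658 CPM there. Sub-cluster 3, with 97 cells led by Lyz1, Retnla, Lpl, Ear2 and Mmp12, had the highest Arg1 level, 621 CPM (566 to 680), with 42.7% of the library's Arg1 UMIs and 58.4 CPM of Spp1 (42.4 to 78.4). Retnla, an interleukin-4 induced secreted protein, stood at 7341 CPM there. Sub-cluster 5, with 95 cells led by Gdf15, Pf4, Cd163 and Hmox1, had 426 CPM of Arg1 (370 to 488), 18.8% of the UMIs, and 151 CPM of Spp1 (118 to 190). Its Hmox1, the haem-degrading enzyme, stood at 7261 CPM.

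Sub-cluster 6 showed Spp1 without Arg1. Its 91 cells at 9 h, led by genes that include Mmp8 and Chil3, had 374 CPM of Spp1 (322 to 432) and 0 Arg1 UMIs, with an exact upper limit of 7.54 CPM. At 2 h the largest groups were sub-cluster 1, with 156 cells led by Plac8 and Ly6c2, and sub-cluster 2, with 144 cells led by C1q genes. They had 69.9 and 34.5 CPM of Spp1 and no Arg1 UMI. Sub-cluster 7, 85 cells at 2 h led by Ccl8, Folr2 and Lyve1, had 1 Spp1 UMI and no Arg1. Sub-cluster 3, which held cells of both times, had 621 CPM of Arg1 in 97 cells at 9 h and 2.19 CPM, 1 UMI, in 47 cells at 2 h. Sub-cluster 9, 47 cells at 9 h led by neutrophil genes with 15750 CPM of S100a8, had 1062 CPM of Spp1 and 115 CPM of Arg1. Without it and the sub-clusters led by FAP or endothelial genes, a check added after the data had been seen, monocyte-like and macrophage-like cells together had 1160 CPM of Spp1, 304 of Arg1 and 91.8 of Arg2 at 9 h, and 60.4, 0.33 and 22.0 CPM at 2 h.

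**Figure D4:**
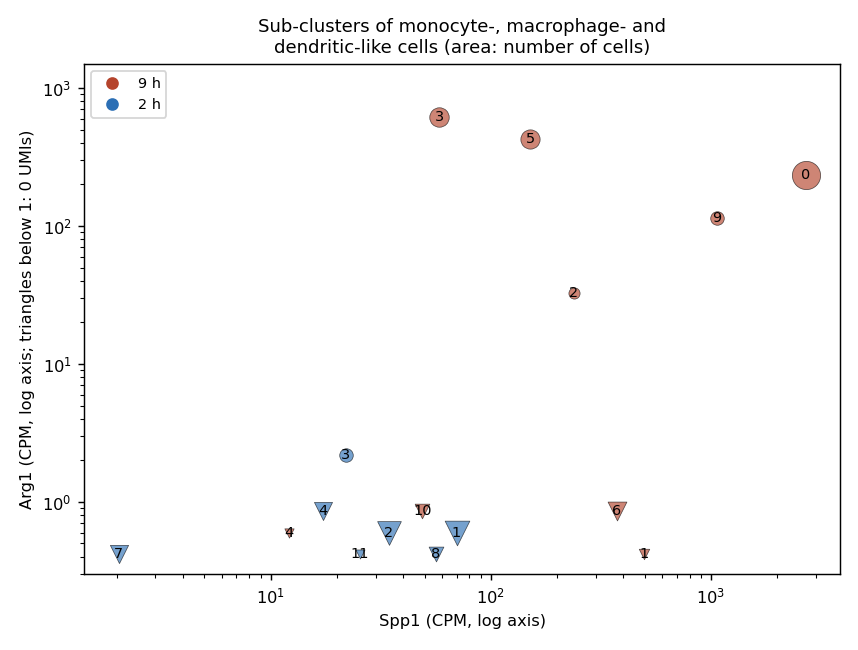
Spp1 level against Arg1 level (CPM, both log axes) in sub-clusters of monocyte-like, macrophage-like and dendritic-like cells with at least 20 cells, at 9 h (red) and 2 h (blue), with area for the number of cells. Triangles below 1 stand for 0 Arg1 UMIs, spread in height only for legibility. Sub-cluster 0 is highest in Spp1 (2703 CPM) and sub-cluster 3 in Arg1 (621 CPM) at 9 h, and no sub-cluster at 2 h is above 2.19 CPM of Arg1.

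Within single cells the members overlapped only in part. In 580 monocyte-like and macrophage-like cells of 9 h thinned to 1000 UMIs, Spp1 was seen in 15 of 49 Arg1-positive cells (30.6%, 18.3 to 45.4) and in 22.0% (18.6 to 25.8) of the 531 others. In monocyte-like cells alone it was seen in 10 of 18 Arg1-positive cells (55.6%, 30.8 to 78.5) and in 29.9% (25.0 to 35.1) of the others. In macrophage-like cells it was seen in 5 of 31 (16.1%, 5.45 to 33.7) and in 8.67% (5.13 to 13.5). The share was higher in the Arg1-positive cells in each of these 3 sets, and the difference itself was not tested. With cells thinned to 2000 UMIs, which keeps more of each cell, the shares in monocyte-like cells were 63.6% (40.7 to 82.8) of 22 Arg1-positive cells and 33.4% (28.3 to 38.9) of the others. In macrophage-like cells they were then 11.4% (3.79 to 24.6) and 10.1% (6.01 to 15.7). Arg1 and Arg2 shared 2 cells: Arg2 was seen in 4.08% (0.498 to 14.0) of Arg1-positive cells and in 9.79% (7.40 to 12.6) of the others. In neutrophil-like cells Arg2 was seen in 39.2% (36.5 to 42.0) of Spp1-positive cells and 38.4% (36.2 to 40.6) of Spp1-negative cells.

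Positive and negative cells of the thinned 9 h monocyte-like and macrophage-like pool were then set side by side over 1542 genes with at least 50 UMIs. These contrasts pool both classes, and low-count genes can lead them. Arg1-positive cells were led by Pdpn, the podoplanin gene, at 510 CPM against 73.5 CPM, Vegfa, the vascular growth factor, at 551 against 141 CPM, and Hilpda, a lipid-droplet protein induced by low oxygen, at 1571 against 426 CPM. Cxcl5, Ppbp, Cd24a, Inhba and Fgl2 followed. Ly6c2, Adipor1 and Tmem14c were lowest, each with 0 UMIs in the 49 positive cells. In macrophage-like cells alone Hilpda led, at 1419 against 403 CPM, and S100a8 was also higher there, at 1290 against 490 CPM; its part in the result was not tested.

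Spp1-positive cells had more of another set. Cxcl3, a neutrophil-attracting chemokine, stood at 4652 CPM in Spp1-positive and 1685 CPM in Spp1-negative cells. Inhba stood at 523 and 185 CPM, the glucose transporter Slc2a1 at 326 and 114 CPM, and the prostaglandin enzyme Ptgs2 at 1348 and 525 CPM. The endoplasmic reticulum chaperone genes Sdf2l1 and Pdia4 were 273 against 73.7 CPM and 288 against 98.2 CPM, and Cstdc4 and Tnfaip6 completed the top 8. Clec10a, a lectin, Cd81 and Selenop were lowest, with Selenop at 45.5 against 275 CPM. Among macrophage-like cells alone the 22 Spp1-positive cells had 3182 CPM of S100a8 against 322 CPM in the others, so S100a8 moved with Spp1 in that class. Whether it came with neutrophil RNA, and its part in the result, were not tested. Arg2-positive cells were led by Slpi, a protease inhibitor (4648 against 1527 CPM), Il1b (4296 against 1513 CPM) and Cd80. Emilin2, Inhba, Bcl2l11, Ptgs2 and Ube2k followed, while Ccl24, Lyz1 and Cd163 had 0 UMIs in the 54 positive cells. Of these 54 cells 49 were monocyte-like, so this contrast also sets monocyte-like against macrophage-like cells. Among monocyte-like cells alone Abca1 (408 against 158 CPM), Cers2 and Fermt3 led. Slpi was 5061 against 2572 CPM there, Il1b, Cd80, Inhba and Ptgs2 were not in the top 8, and Hsph1, Ccl7 and Cd74 were lowest. In neutrophil-like cells of 9 h the highest log2 ratio of Spp1-positive over Spp1-negative cells was 0.95, for Kbtbd2 at 29.8 against 10.6 CPM, and the lowest -1.19, for Scnn1a at 6.45 against 27.5 CPM.

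Across 26 groups, each a cluster in 1 library with at least 50 cells, the profile of Spp1 followed Arg2 (Pearson r 0.833 on log2 levels) and not Arg1 (0.081), and Arg1 did not follow Arg2 (-0.168). Groups of a library share its depth and its free RNA, and many are neutrophil clusters, so these coefficients describe the groups only. Arg2 had the closest companions: Trem1, a neutrophil activation receptor, and Fpr2, a formyl peptide receptor, both at 0.992, then Sirpb1b, Slfn1, Cd300lf, Slc7a11, Clec4d and Dmxl2 down to 0.976. Slc7a11, a cystine transporter, reached 8518 CPM in cluster 3 at 9 h. Spp1 was most like Lcn2, a neutrophil granule protein (0.902), Clec5a (0.883), Ier3 (0.879), Tnfrsf23, Arrdc4, Upp1, Tnfrsf26 and Fbxl5 (0.862). Arg1 had looser companions, led by Ppbp, a platelet-type chemokine (0.774), then Syvn1, Areg, Il10, Ccl12, Rap2b, C3ar1 and Pgk1 (0.653).

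The pathway around the members was read in the pool of monocyte-like with macrophage-like cells, where 2.43% of 6079 measured genes were at least 2-fold higher at 9 h and 5.92% at least 2-fold lower, with a median log2 ratio of -0.03. The mix of the pool differed between the times, with more monocyte-like cells at 9 h. In this pool Spp1 stood at 1130 CPM at 9 h and 60.2 CPM at 2 h, Arg1 at 281 and 0.568 CPM, and Arg2 at 105 and 26.1 CPM.

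Genes that bring in or use arginine had a median near that of all genes in the pool, though single genes differed between the classes. Of 7 measured, 0 were past 2-fold in either direction, and the median log2 ratio was 0.10. Slc3a2, the shared chain of amino acid transporters, stood at 356 CPM at 9 h and 294.5 CPM at 2 h, and Azin1, the antizyme inhibitor, at 281 and 238 CPM. Ass1, which remakes arginine from citrulline, stood at 27.5 CPM at 9 h and 17.3 CPM at 2 h, and the classes went opposite ways. In macrophage-like cells it was 29.2 CPM at 9 h and 2.76 CPM at 2 h (ratio 10.6, 4.48 to 30.4), and in monocyte-like cells 26.2 and 40.9 CPM (0.641, 0.432 to 0.951). Slc7a2, an arginine transporter with too few UMIs to count as measured, had 36 UMIs at 9 h and 3 at 2 h in the pool, a ratio of 12.0 (3.78 to 60.7). The values by class and those of Slc7a2 were chosen after they were seen. Gatm, which uses arginine for creatine synthesis, was lower at 9 h, at 30 CPM against 68.2 CPM at 2 h. Nos2, the inducible nitric oxide synthase and rival of arginase, had 3 UMIs at 9 h and 0 at 2 h in the monocyte-like class, too few to count as measured.

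The list of ornithine, polyamine and proline synthesis included a few genes that were higher at 9 h. Of 12 measured, 2 were past 2-fold higher and 0 lower, with a median of 0.15. Srm, spermidine synthase, stood at 55.8 CPM at 9 h and 11.9 CPM at 2 h, and in macrophage-like cells alone at 113 CPM and 12.9 CPM, a ratio of 8.75 (5.84 to 13.6). Smox, spermine oxidase, stood at 244 CPM at 9 h and 107 CPM at 2 h. Oaz1, an antizyme that restrains ornithine decarboxylase, and Sat1, which acetylates spermidine, were abundant and near level, at 616 and 1091 CPM at 9 h against 655 and 1322 CPM at 2 h. Oaz2 was 16.4 CPM at 9 h and 29.8 CPM at 2 h. Odc1, ornithine decarboxylase, outside the naming rule and chosen after its values were seen, was 235.5 CPM at 9 h against 93.7 CPM at 2 h in the monocyte-like class (ratio 2.51, 2.06 to 3.08), and 254 and 153 CPM in macrophage-like cells (1.66, 1.43 to 1.93).

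Osteopontin's receptors had a median near that of all genes in the pool, with single genes higher or lower at 9 h. Of 6 measured, 0 were past 2-fold higher and 1 lower, with a median of -0.09. Cd44 was the most abundant, at 1229 CPM at 9 h and 946 CPM at 2 h in the pool, and 2342 CPM at 9 h and 3306 CPM at 2 h in neutrophil-like cells. Itga4, an integrin chain of circulating leukocytes, was lower at 9 h, at 52.9 CPM against 195 CPM at 2 h, and in monocyte-like cells alone at 63.6 against 375 CPM. Itgb1 was 203 CPM at 9 h and 266 CPM at 2 h, Itgav 70.8 and 52.3 CPM, and Itgb5 20.7 and 43.2 CPM. Among 5 measured genes that process osteopontin or act beside it, 1 was past 2-fold higher, Thbs1, the matrix protein thrombospondin, at 6818 CPM at 9 h and 1715 CPM at 2 h. Tgm2, a crosslinking enzyme, stood at 121 and 58.5 CPM, Mmp12 at 35.1 and 58.5 CPM, and Mmp9 at 20.9 and 46.0 CPM. The classes differed from the pool. In macrophage-like cells 3 of 5 were past 2-fold higher and 1 lower. There Thbs1 was 2227 CPM at 9 h and 566 CPM at 2 h, Tgm2 134 and 37.7 CPM, Fam20c 46.1 and 15.6 CPM, and Mmp9 13.6 and 68.0 CPM. In monocyte-like cells 1 of 2 was higher and 0 lower.

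Arg1 is often read together with genes that interleukin-4 induces, and their median ratio in the pool was near that of all genes. Of 11 measured, 1 was past 2-fold higher and 1 lower, with a median of -0.07. Ccl17, a chemokine, stood at 71.3 CPM at 9 h and 2.27 CPM at 2 h, while Mgl2, a lectin, stood at 71.3 and 329 CPM. Retnla, Chil3 and Mrc1, the most abundant of the list, stood at 1719, 1634 and 752.5 CPM at 9 h, against 2700, 829.5 and 789 CPM at 2 h. The mix of classes bears on these values. Mrc1, the mannose receptor, was near level in the pool (ratio 0.954) but higher at 9 h within macrophage-like cells (1.33, 1.26 to 1.41) and within monocyte-like cells (2.56, 1.88 to 3.56). Retnla was near level within macrophage-like cells, at 4114 CPM at 9 h and 4366 CPM at 2 h. In that class 2 of 10 measured genes of the list were past 2-fold higher and 1 lower (median 0.23, all genes 0.02). Ccl17 was 170 CPM at 9 h and 3.68 CPM at 2 h, Clec10a 420 and 133 CPM, and Mgl2 171 and 532 CPM. In monocyte-like cells 1 of 4 was higher and 0 lower (median 0.003, all genes -0.09). Irf4 stood at 11.3 CPM at 9 h and 28.97 CPM at 2 h.

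In the same pool, lists of low oxygen, cyclic AMP, inflammation and lipid handling each held genes past 2-fold higher and none lower. Of 11 hypoxia-response genes 4 were past 2-fold higher and 0 lower (median 0.66), with Hif1a at 813 CPM at 9 h and 318 CPM at 2 h, Vegfa at 170 and 48.3 CPM, and Pgk1, a glycolytic enzyme, at 368 and 157 CPM. Of 10 genes linked to cyclic AMP or C/EBP 3 were higher and 0 lower (median 0.27), led by Ptgs2 at 717 CPM at 9 h and 130 CPM at 2 h, while Cebpb itself was 3878 and 3011 CPM. Of 13 inflammatory monocyte genes 10 were higher and 0 lower (median 1.43), led by Cxcl3 at 2463 CPM at 9 h and 143 CPM at 2 h. In monocyte-like cells alone the log2 ratio of Cxcl3 (4.82) was past that of Spp1 (3.87). The value for Arg1 there (3.96) is held down by the 10 CPM added to 0 UMIs at 2 h. It therefore cannot be ranked against Cxcl3. Without added CPM, Arg1 was at least 65.3-fold higher at 9 h, with 2 h set to 3 counts, and Cxcl3 30.9-fold (26.1 to 36.9). Cxcl2 of the inflammatory list stood at 18940 CPM at 9 h and 5052 CPM at 2 h in the pool. Among the 14 lipid-associated macrophage genes 7 were higher and 0 lower (median 1.09), with Fabp5 at 656 CPM at 9 h and 150 CPM at 2 h and Plin2 at 1454 and 383 CPM, while Apoe was 1965 and 3702 CPM and Trem2 41.9 and 78.9 CPM. Apoe was lower at 9 h in macrophage-like cells, at 2394 against 5246 CPM, and higher in monocyte-like cells, at 1658 against 1202 CPM. Among the 17 early infiltrating macrophage genes 8 were higher and 0 lower (median 0.98), with Slpi at 1664 CPM at 9 h and 274 CPM at 2 h. These lists share genes such as Thbs1, Ptgs2, Cxcl3 and Vegfa. Within the classes some genes were past 2-fold lower. In macrophage-like cells 4 of 10 hypoxia-response genes were higher and 1 lower. The cyclic AMP list had 3 of 10 higher and 1 lower there, and the lipid list 8 of 13 and 1. In monocyte-like cells these 2 lists had 3 of 10 and 8 of 14 higher, with 1 lower each. The cyclic AMP median was -0.08 in macrophage-like cells (all genes 0.02) and 0.65 in monocyte-like cells (all genes -0.09).

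**Figure D5:**
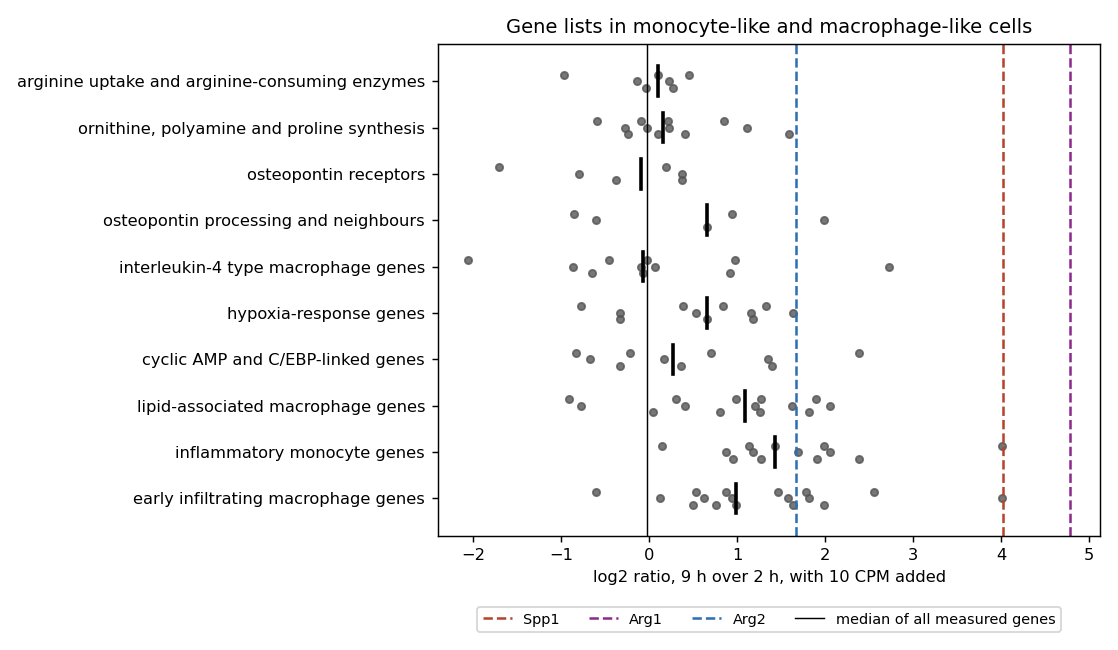
Log2 ratio of 9 h over 2 h, with 10 CPM added, in the pool of monocyte-like with macrophage-like cells, for each measured gene (dots) of 10 lists, with the list's median (short bar), the median of all measured genes (solid line, -0.03) and the members (dashed lines). Arg1 (4.79) lies past every gene of these lists in this pool, Spp1 (4.02) lies beside Cxcl3 (4.01), and Arg2 (1.67) lies within the range of the inflammatory list.

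The same lists were read in neutrophil-like cells, where Spp1 and Arg2 were most abundant. Of 13 hypoxia-response genes measured, 0 were past 2-fold in either direction (median -0.30). Of 8 ornithine, polyamine and proline genes 0 were past it (median -0.10), and Smox stood at 853 CPM at 9 h and 845 CPM at 2 h. Of 11 inflammatory genes 6 were higher and 0 lower (median 1.25), with Cxcl3 at 7925 CPM at 9 h and 1633 CPM at 2 h. Odc1 was 39.7 CPM at 9 h and 43.1 CPM at 2 h.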

How the data were processed

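Mononuclear cells from injured muscle were profiled by droplet 3' RNA sequencing, 1 library at 9 h and 1 at 2 h. The deposited matrices hold counts (UMIs of each gene in each barcode). Per the submitters' processing notes the authors used Cell Ranger 5.0.0 and mm10; its counting options are not given in the sources used here. There were 8790 barcodes holding 36042307 UMIs at 9 h and 5729 holding 28635763 at 2 h.

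Cells with under 200 genes, under 500 UMIs or over 20% mitochondrial UMIs were left out (643 barcodes at 9 h and 829 at 2 h). Both libraries were clustered together in Scanpy 1.11.5 without batch correction, with the members barred from the 2000 variable genes (10000 UMIs per cell, log transform, values capped at 10, 30 principal components, 15 neighbours, Leiden resolution 1, seed 0). Monocyte-like, macrophage-like and dendritic-like cells were clustered again in the same way. A cluster took the class whose markers scored highest above the median cluster if at least 3 markers were each seen in 10% of its cells, its score exceeded the next by a factor of 1.5 or more, and no other class had more markers among its 10 leading genes. Scrublet marked 0% of cells at 9 h and 0.122% at 2 h. Calls under 0.5% were not used, so doublets stayed in, and leaving out the highest-scoring cells was an alternative.

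Levels carry exact Poisson intervals, shares Clopper-Pearson intervals and ratios conditional binomial intervals, at 95%. No test across samples could be made with 1 library at each time. Carried RNA was reckoned as the class's S100a8 level over that of neutrophil-like cells, times their level of the member. A gene with at least 100 UMIs in a class over both libraries counted as measured, and a count of 0 was set to a floor of 3 counts for a bound. Thinning drew 1000 UMIs per cell. TMM scaling used edgeR 4.0.16. The calculations were tested on simulated data.

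The members and gene lists were chosen with earlier results of these data known. Named genes were the 8 most like each member across groups of at least 50 cells, among genes with at least 200 UMIs, the 8 highest and 3 lowest between positive and negative cells, and, per list, the 3 highest in level and the 2 highest and 2 lowest in ratio. Genes of mitochondria, ribosomal proteins and haemoglobin, and models with no name, were left out. Protein sequences were not used here.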

Additional observations from a re-analysis of the deposited data

Results flagged for a closer look

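The barcodes left out by the filters on genes, UMIs and mitochondrial share, which no comparison above uses, also held the members, and this signal lay above the level that 3 counts would give. At 9 h the 643 barcodes left out had 479.9 CPM of Spp1 (439 UMIs), 10.93 CPM of Arg1 (10 UMIs) and 79.81 CPM of Arg2 (73 UMIs). At 2 h the 829 barcodes left out had 28.92 CPM of Spp1 (30 UMIs) and 19.28 CPM of Arg2 (20 UMIs), with 0 Arg1 UMIs. They made up 1.65% of all Spp1 UMIs at 9 h and 0.809% at 2 h. These barcodes were in no cell class, and the source of their UMIs was not tested.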

How the results depend on the processing

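No paired analysis was possible because there was 1 library per time. Over 22 results and 182 alternatives, 134 values stayed within their error and 48 moved. A change of direction was looked for in the log2 ratios only, and 0 of them changed direction. The log2 ratio of Spp1 in the monocyte-like and macrophage-like pool (4.02) was 3.57 with each library clustered alone and 4.27 without the cell with the most UMIs in each library, and in the monocyte-like class alone (3.87) 4.31 without that cell. The log2 ratio of Arg1 in this pool (4.79) was 4.30 at Leiden resolution 2 and 7.49 with 1 CPM added, and in macrophage-like cells (5.46) 4.88 and 7.94. A smaller added level raises such a ratio by construction. TMM scaling, which shifted log2 ratios by 0.18 in neutrophil-like cells, gave 1.78 for Spp1 there (1.60 unscaled) and 0.31 for Arg2 (0.13). The share of Spp1 UMIs in neutrophil-like cells at 9 h (65.2%) was 76.9% with the members among the variable genes, 77.1% at resolution 0.5, 50.9% at resolution 2, 61.9% at a mitochondrial limit of 10%, 76.5% with at least 1000 UMIs per cell, 81.3% without the cells of highest Scrublet score and 77.2% with cluster 4 counted in. The Arg2 share there (71.3%) was 84.7%, 84.9%, 57.2%, 68.7%, 84.4%, 91.2% and 85.0% in the same order, and 72.8% with each library clustered alone. The Arg1 share in monocyte-like and macrophage-like cells (90.7%) was 49.7% at resolution 2, 94.8% without the high Scrublet scores and 85.9% without the sub-clusters led by genes of other cells, which also gave 13.7% for Spp1 (15.3%). The thinned share of neutrophil-like cells with Spp1 (39.6%) was 37.4% with the members allowed, at resolution 0.5, at 1000 UMIs and with cluster 4 counted in (37.38%, 37.39%, 37.45% and 37.43%), 36.7% at resolution 2 and 37.0% without the high Scrublet scores, 58.0% when thinned to 2000 UMIs and 45.6% unthinned. For Arg2 (38.7%) these last were 57.02% and 57.22%. In the pool the Spp1 share (22.8%) was 30.6% unthinned, the Arg1 share (8.45%) 6.29% at resolution 2, 12.0% at 2000 UMIs and 17.9% unthinned, and the Arg2 share (9.31%) 16.3% and 31.5%. With no filter on low counts the shares of genes at least 2-fold higher and lower at 9 h were 0.97% and 2.79% in that pool and 1.44% and 1.94% in neutrophil-like cells, since more genes with few counts were then tested. Beside these constructions the cause was not tested. Counting cluster 4 as neutrophil-like, leaving out the odd sub-clusters or the richest cell, and co-detection in neutrophil-like cells were chosen after seeing the data. The depth to which cells were thinned moved the shares of cells as given above. With 1 library per time the spread between animals is not measured, and time cannot be told apart from library.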

Other observations

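Within the monocyte-like class at 9 h, each cell thinned to 1000 UMIs, the 110 Spp1-positive cells held more of Pf4, a platelet-type chemokine, at 782 CPM against 239 CPM in the 243 Spp1-negative cells. Hilpda stood at 882 and 342 CPM, Slc2a1 at 382 and 140 CPM, Dab2, an endocytic adaptor, at 982 and 407 CPM, and Vegfa at 318 and 132 CPM. Pdia4, Cxcl3 and Emp1 were the rest of the 8 highest. Clec4a3, Cox7b and Samhd1 were lowest, with Samhd1 at 109 against 362 CPM. In macrophage-like cells at 9 h, Thbs1 stood at 3645 CPM in the 31 Arg1-positive cells and 1628 CPM in the 196 others, while Ccl12, a chemokine, had 0 UMIs in the Arg1-positive cells and 342 CPM in the others.

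At 2 h the 261 Spp1-positive neutrophil-like cells, thinned likewise, held 119 CPM of Upp1, uridine phosphorylase, against 43.7 CPM in the 1259 Spp1-negative cells. Ifit1, an interferon-induced gene, was the lowest, at 11.5 against 61.2 CPM, 3 UMIs in all among the Spp1-positive cells. Upp1 was also among the 8 genes most like Spp1 across clusters.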
